A study of Mus musculus with 12 samples.

Results

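Genes that activate, carry, bind and read out thyroid hormone were followed in the ventricles of mouse embryos. The set holds 5 of the 38293 genes in the deposited table: Dio2, which encodes the activating type 2 deiodinase; the receptor genes Thra and Thrb; Slc16a10, which encodes a plasma membrane carrier; and Crym, which encodes a hormone-binding protein of the cytosol. Dio2 was chosen by its measured counts, which were higher in Mib1 mutant than in Cre control ventricles, and the other 4 genes were taken with it for their known roles. Its values in that comparison are therefore given as a description, without a test. All 5 genes were chosen with earlier results of these data known.

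The hearts were collected at E15.5, and 4 pairs of ventricles made up a pool, with 3 pools for each of 4 genotypes. Embryos called Mib1 mutant had the stop allele R530X of Mib1 over a loxP-flanked Mib1 allele, together with 1 copy of Tnnt2-Cre. The Cre control had Tnnt2-Cre as well, with a loxP-flanked Mib1 allele over a normal copy, so both of these groups carried Cre and a loxP-flanked allele. The triple heterozygote carried R530X of Mib1, a missense allele of Asxl3 and V150I of Apcdd1, each over a normal copy, and was set against WT embryos. The labels name the Asxl3 allele in 2 ways, as M1415V in the sample fields and as M1361V in the protocol. Mib1 encodes a ubiquitin ligase that Notch ligands need for signalling. Tnnt2-Cre recombines loxP sites in cardiomyocytes, so the other cells of Mib1 mutant ventricles kept the loxP-flanked copy beside the stop allele, which was present in all cells.

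Thyroid hormone circulates mainly as thyroxine, which enters cells through membrane carriers and becomes triiodothyronine, the form with high affinity for the receptors, when a deiodinase removes an outer-ring iodine. The receptors are nuclear proteins that bind DNA mostly as partners of retinoid X receptors, holding corepressors without hormone and coactivators with it. In the rodent heart the hormone is known for raising the alpha myosin heavy chain, the calcium pump and several potassium channels around birth, and for lowering the beta myosin heavy chain.

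Library totals lay between 10103548 and 22157720 expected counts. Triple heterozygote replicate 2 was the deepest, and the other 11 libraries held at most 14774121. A single read corresponded to 0.0452 to 0.0991 CPM (counts scaled to library size with TMM factors). Mib1 averaged 52.2 ± 2.41 CPM in Mib1 mutant pools and 105 ± 3.51 CPM in Cre control pools, and 68.7 ± 9.29 CPM in triple heterozygote pools and 136 ± 9.45 CPM in WT pools (SD, n = 3 each), in the order the genotypes imply. Xist was at 0.095 CPM in Mib1 mutant replicate 1 and at 0.387 CPM in Cre control replicate 1, against 71.5 to 458 CPM in the other 10 libraries, so these 2 pools held almost no Xist RNA. They are called the pools of 1 sex here.

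Dio2 (ENSMUSG00000007682) lies on the minus strand of chromosome 12, from 90724552 to 90738438 on GRCm38, and its exons span 5815 bases. Its messenger RNA carries an in-frame TGA that is read as selenocysteine, the residue at the catalytic centre of all 3 deiodinases. The coding sequences around that codon, from the GENCODE M21 transcripts on GRCm38, are shown 5′ to 3′ to place Dio2 among its relatives, with the TGA in capitals. The codons lie at chr12:90729823-90729825 (minus strand) for Dio2, chr4:107297700-107297702 (minus strand) for Dio1 and chr12:110279739-110279741 (plus strand) for Dio3.
Dio2: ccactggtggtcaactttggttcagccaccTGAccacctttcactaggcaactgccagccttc
Dio1: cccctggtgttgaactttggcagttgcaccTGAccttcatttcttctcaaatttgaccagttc
Dio3: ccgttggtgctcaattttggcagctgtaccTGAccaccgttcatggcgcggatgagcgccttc
Dio2 has a second annotated TGA of this kind, 3′ of the first, at chr12:90729424-90729426, given below with the same marking. An in-frame TAG follows it within the bases shown, so the bases after that TAG are not coding sequence.
Dio2, second codon: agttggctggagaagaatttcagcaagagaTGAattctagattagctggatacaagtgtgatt

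The Dio2 promoter is shown because cyclic AMP, GATA and NKX2-5 inputs to it are known from other systems. The RefSeq window chr12:90738989-90739288, on the minus strand of GRCm38.p6, runs from 250 bases before to 50 bases after the RefSeq start at 90739038, which lies 600 bases upstream of the start in GENCODE.
Dio2 promoter: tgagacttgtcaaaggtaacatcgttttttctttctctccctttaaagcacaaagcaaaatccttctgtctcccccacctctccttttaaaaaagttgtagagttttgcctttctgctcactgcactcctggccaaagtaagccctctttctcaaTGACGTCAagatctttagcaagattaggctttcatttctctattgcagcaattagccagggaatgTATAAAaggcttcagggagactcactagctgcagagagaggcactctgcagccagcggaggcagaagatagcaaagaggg
The capitals mark a cAMP response element, TGACGTCA, that begins 95 bases before the start, and a TATA box, TATAAA, that begins 30 bases before it. Among 32851 RefSeq promoter windows of the same length, 1.79% held TGACGTCA on either strand and 8.32% held TATAAA on the given strand. One GATA match, AGATAG, begins at base 36 after the start, and 29.8% of all windows held GATA, preceded by A or T and followed by A or G, on either strand. The NKX2-5 motif TNAAGTG, present in 11.5% of windows, and the receptor half-site AGGTCA, present in 16.3%, had no match in this window. The same search covered 4 windows of 3 of the genes. One Thrb window, with its start at 17660960, held AGGTCA 184 bases before the start, the other Thrb window, with its start at 17981644, held TATAAA 167 bases before the start, and the Slc16a10 window held none of the motifs. A direct repeat of AGGTCA with a spacer of 4 bases, the classical receptor element, was found in none of these 4 windows and in 0.0152% of all windows.

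Dio2 stood at 42.9, 20.4 and 25.5 CPM in the 3 Mib1 mutant pools, against 12.1, 10.98 and 13.5 CPM in the 3 Cre control pools. All Mib1 mutant pools lay above all Cre control pools, and replicate 1 of the mutant was far above the other two. Triple heterozygote pools held 11.3, 9.49 and 10.3 CPM, against 13.96, 12.9 and 11.3 CPM in WT pools. These 2 groups met at their edges, and both lay close to the Cre control. The means were 29.6 ± 11.8 CPM in the Mib1 mutant and 12.2 ± 1.28 CPM in the Cre control, and 10.4 ± 0.928 CPM in the triple heterozygote and 12.7 ± 1.31 CPM in WT (SD, n = 3 each). The fitted log2 fold change of Mib1 mutant over Cre control was 1.27 (SE 0.21), which is 2.41-fold. It was 0.90 without Mib1 mutant replicate 1, and 0.89 without the pools of 1 sex, which include that replicate. Between 104 and 451 reads per library stand behind these values. Among all 13964 genes tested, 1.5% were called between these 2 groups at an edgeR adjusted p under 0.05, and 8.86% had every Mib1 mutant pool above every Cre control pool. The log2 fold change of the Cre control over WT was -0.06 (SE 0.22).

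**Figure D1:**
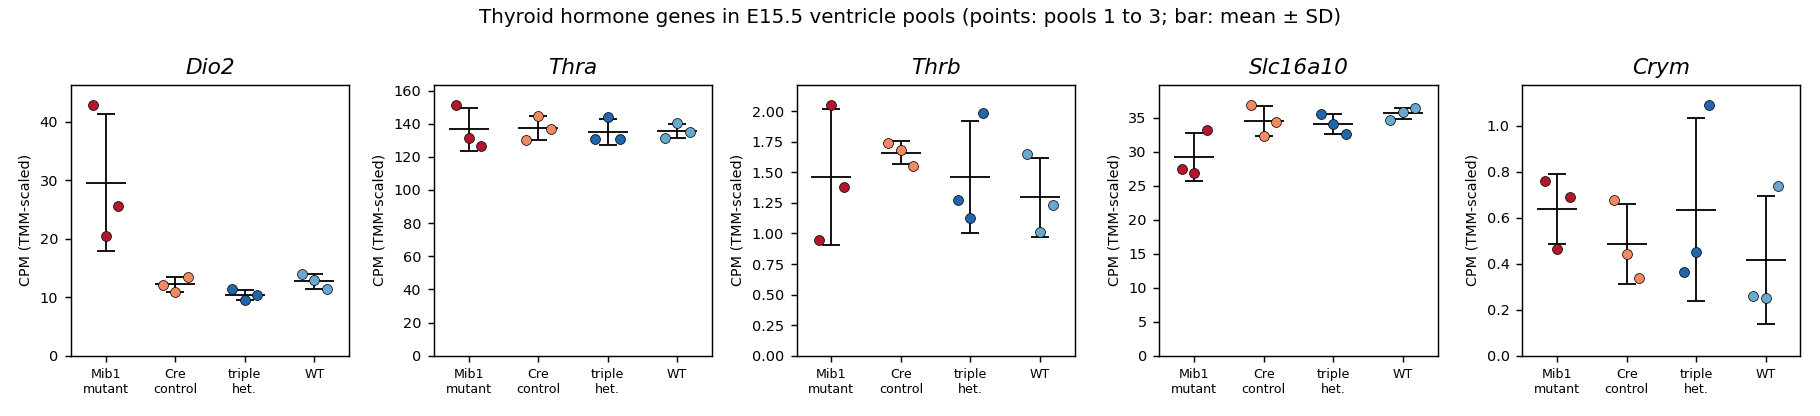
CPM (TMM-scaled, linear axis from 0, 1 panel per gene) of Dio2, Thra, Thrb, Slc16a10 and Crym in each pool, with points for pools 1 to 3 and a bar for the mean ± SD. Dio2 sits at 20.4 to 42.9 CPM in Mib1 mutant pools and at 9.49 to 13.96 CPM in the 9 other pools, while the other 4 genes overlap between each pair of genotypes compared.

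Whole ventricles hold several cell types, and fewer cells of a type and less RNA per cell cannot be told apart in pooled tissue. Summed over 7 fibroblast and mesenchyme markers, Mib1 mutant pools held 4680 to 5816 CPM and Cre control pools 4272 to 4345 CPM. Of these 7 genes, 4 were above in all pools, as were 8.86% of all genes tested. The 8 cardiomyocyte markers summed to 37388 to 46565 CPM in Mib1 mutant pools and 46699 to 51832 CPM in Cre control pools. Of these 8 genes, 3 were below in all pools, as were 7.75% of all genes tested. The lowest sum was in Mib1 mutant replicate 1, the pool with most Dio2. Tnnt2, Actc1, Ttn and the other 5 of these defining cardiomyocyte genes were detected in all pools. The 6 macrophage and leukocyte markers summed to 37.8 to 50.1 CPM in Mib1 mutant pools and 60.8 to 80.3 CPM in Cre control pools. Of these 6 genes, 4 were below in all pools. The 5 epicardial markers summed to 168 to 181 CPM in Mib1 mutant pools and 143 to 158 CPM in Cre control pools. Of these 5 genes, 1 was above in all pools. Among Mib1 mutant pools, the fibroblast and epicardial sums were highest in replicate 2, the pool of that genotype with least Dio2. The part of these marker sums in the Dio2 values was not tested. Endothelial and smooth muscle sums overlapped between these groups, though of 6 smooth muscle genes 3 were above and 1 below in all pools. The endothelial sums of Mib1 mutant replicates 1 to 3 were 1054, 886 and 925 CPM, in the same order as Dio2. Replicate 1 was above every other pool of the 4 genotypes. The smooth muscle sums of these replicates were 1396, 2146 and 2034 CPM, in the reverse order. The part of these sums in the Dio2 values was not tested either.

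The other 2 deiodinase genes had few reads or none. Dio3, which encodes the inactivating inner-ring enzyme, had 4 reads over all 12 libraries, in 2 of them. Dio1, which encodes the type 1 enzyme of liver and kidney, had 0 reads, and a count of 0 allows up to 3 reads, which over all libraries is 0.0202 CPM. Dio2 was thus the deiodinase transcript with most reads in all 4 genotypes. Genes that act on the Dio2 protein were also read: Wsb1, the substrate receptor of a ubiquitin ligase that marks the enzyme for breakdown, averaged 133 ± 10.6 CPM in Mib1 mutant pools and 123 ± 5.71 CPM in Cre control pools (log2 fold change 0.12, SE 0.08, edgeR adjusted p = 0.552). March6, another ubiquitin ligase for the enzyme, averaged 197 ± 26.6 CPM in Mib1 mutant pools and 195 ± 9.81 CPM in Cre control pools. None of the 10 genes for selenoprotein synthesis and Dio2 turnover passed the test in this comparison, 0 of them at an unadjusted p under 0.05, and their median log2 fold change was -0.01, against 0.005 over all genes tested.

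Slc16a10 (ENSMUSG00000019838; minus strand of chromosome 10, 40033532 to 40142258) encodes a carrier of aromatic amino acids that also moves iodothyronines. Its levels were 27.6, 26.9 and 33.3 CPM in Mib1 mutant pools, against 36.9, 32.4 and 34.4 CPM in Cre control pools. Mib1 mutant replicate 3 lay within the Cre control range and the other two below it. The triple heterozygote had 35.6, 34.1 and 32.6 CPM, against 34.8, 35.9 and 36.4 CPM in WT pools, with overlap. The log2 fold change was -0.24 (SE 0.09) for Mib1 mutant over Cre control and -0.05 (SE 0.09) for Cre control over WT, given without a test.

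Among 10 other carriers, 5 had enough reads for the test and 0 were called in any comparison. Slc7a5 and Slc3a2 encode the light and heavy chains of a large neutral amino acid carrier that also takes up the hormone. Slc7a5 averaged 44.0 ± 8.16 CPM in Mib1 mutant pools and 48.3 ± 2.55 CPM in Cre control pools. Slc3a2 averaged 40.8 ± 3.21 CPM in Mib1 mutant pools and 41.1 ± 1.76 CPM in Cre control pools. Slco1c1, the thyroxine carrier of brain vessels, did not exceed 0.76 CPM in any library.

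Thra (ENSMUSG00000058756; plus strand of chromosome 11, 98740638 to 98769006) encodes the receptor form that prevails in heart, along with a splice form that does not bind the hormone, and the table sums both. It stood at 151, 132 and 127 CPM in Mib1 mutant pools, against 130, 145 and 137 CPM in Cre control pools. In triple heterozygote pools it stood at 131, 144 and 130 CPM, against 131, 140 and 135 CPM in WT pools. All 4 groups overlapped. The log2 fold change of Mib1 mutant over Cre control was -0.01 (SE 0.08), with between 1317 and 3182 reads per library. Nr1d1, which encodes a circadian repressor, runs on the opposite strand and shares 263 bases, or 5.7%, of the exonic length of Thra. The libraries are directional, but whether counting used the strand is not given in the sources used here, so reads from that overlap may belong to either gene. Nr1d1 stood at 11.5, 10.3 and 8.88 CPM in Mib1 mutant pools and at 12.1, 12.1 and 12.6 CPM in Cre control pools (log2 fold change -0.26, SE 0.13, edgeR adjusted p = 0.391).

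Thrb (ENSMUSG00000021779; plus strand of chromosome 14, 17660261 to 18038090) encodes the receptor that prevails in liver, pituitary and inner ear. Its levels were 0.950, 2.05 and 1.38 CPM in Mib1 mutant pools, against 1.74, 1.68 and 1.56 CPM in Cre control pools. Triple heterozygote pools held 1.27, 1.13 and 1.98 CPM, against 1.65, 1.01 and 1.23 CPM in WT pools. The groups overlapped throughout, on 10 to 25.3 expected counts per library, and the log2 fold change of Mib1 mutant over Cre control was -0.18 (SE 0.35). Those counts were not whole in 8 of 12 libraries. The longest run shared by annotated Thra and Thrb transcripts is 26 bases, below the read length of 60, and is shown 5′ to 3′ as the longest stretch in which the receptor genes are identical.
Thra and Thrb shared run: ggctgctgcatggagatcatgtccct

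Crym (ENSMUSG00000030905; minus strand of chromosome 7, 120186380 to 120202111) encodes mu-crystallin, a ketimine reductase that binds thyroid hormone in the cytosol. It had 3 to 11 reads per library, 78 in all, and the filter on low counts removed it from the test. Mib1 mutant pools held 0.760, 0.466 and 0.690 CPM, against 0.676, 0.443 and 0.338 CPM in Cre control pools. The triple heterozygote pools had 0.363, 0.452 and 1.09 CPM, against 0.260, 0.253 and 0.740 CPM in WT pools. No order of the genotypes could be read at this depth.

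Per length, in TPM, computed here from counts and exonic gene length, the order of the 5 genes over the 12 libraries was Thra, Slc16a10, Dio2, Thrb and Crym. Thra ranged from 72.0 to 101 TPM with a median of 79.8, and Slc16a10 from 10.1 to 14.2 TPM with a median of 12.7. Dio2 ranged from 4.4 to 22.6 TPM, Thrb from 0.365 to 0.773 TPM, and Crym from 0.199 to 0.878 TPM. Thrb and Crym could not be ordered, since Crym was at or above Thrb in 4 libraries. Slc16a10 was above Dio2 in 11 libraries, and Mib1 mutant replicate 1 was the exception. The TPM level of Slc16a10 was 0.508 to 1.04 times that of Dio2 in Mib1 mutant pools and 2.01 to 2.42 times in Cre control pools, and 2.48 to 2.84 times in triple heterozygote pools and 1.97 to 2.54 times in WT pools. Thra was at 4.45 to 8.13 times the TPM of Dio2 in Mib1 mutant pools and at 12.7 to 16.6 times in Cre control pools. Both ratios hold the Dio2 values that chose the gene. Thra was at a median of 145 times the TPM of Thrb, with a range of 102 to 255 over the 12 libraries. That range leaves out the choice of length. In WT, Thra averaged 79.7 TPM and Thrb 0.477 TPM with exonic length. With the longest transcript as length they averaged 121 TPM and 0.460 TPM, a wider gap.

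**Figure D2:**
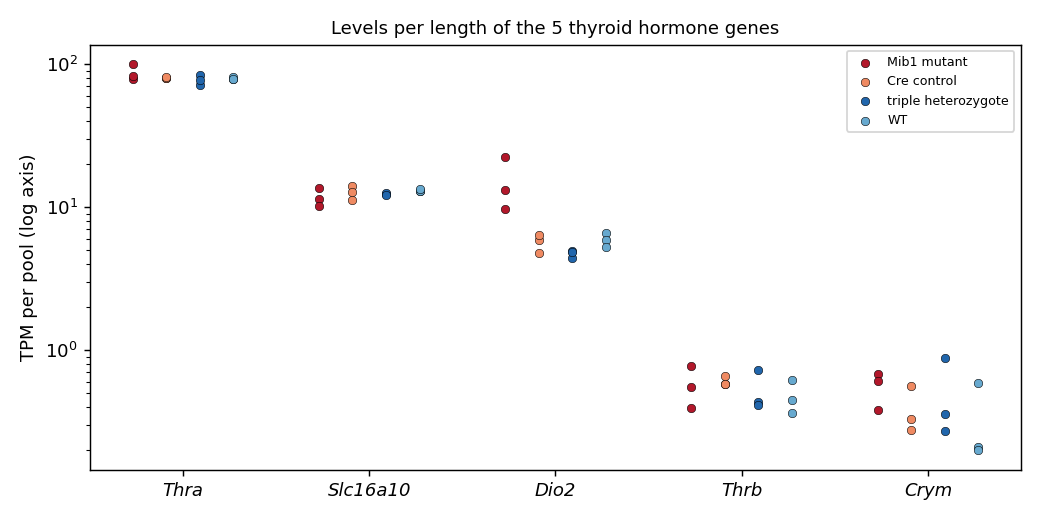
Level per length (TPM, log axis) of the 5 genes in each of the 12 pools, coloured by genotype. Thra lies at 72.0 to 101 TPM, Slc16a10 at 10.1 to 14.2 TPM, and Thrb and Crym both lie below 1 TPM with overlapping ranges, while Dio2 spreads from 4.4 to 22.6 TPM with its highest values in Mib1 mutant pools.

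The comparison of triple heterozygote and WT shares no library with the one in which Dio2 was chosen, and there the genes were tested. The choice was still made with earlier results of these data known. None of the 4 genes with enough reads was called by edgeR or limma-voom, none of the 3 to which DESeq2 gave an adjusted p was called by it, and 0 of 4 had an unadjusted edgeR p under 0.05. Over all genes, 0.0215% were called in this comparison. Dio2 had a log2 fold change of -0.30 (SE 0.22, edgeR adjusted p = 0.674, 0.42 to 0.998 over the alternatives), with 2 of 3 triple heterozygote pools below every WT pool. Slc16a10 had -0.07 (SE 0.09, edgeR adjusted p = 0.835), Thrb 0.13 (SE 0.35, edgeR adjusted p = 0.926) and Thra -0.004 (SE 0.08, edgeR adjusted p = 0.992). Without the filter on low counts, Crym had 0.54 (SE 0.62, edgeR adjusted p = 0.841). The directions for Thra and Thrb changed when single pools were left out. The log2 difference between the Dio2 effects of the 2 genotype pairs was 1.57 (SE 0.30), a description since it holds the comparison that chose the gene.

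The wider pathway was a list of 69 other genes, of which 67 had a read and 57 were tested. It was drawn up with earlier results of these data known, so its shares and calls are no test of the pathway. Of these 57 genes, 3 were called in Mib1 mutant ventricles against the Cre control, or 5.26%, against 1.5% of all genes tested. Of the 3, 2 were lower and 1 higher; over all genes tested, 0.594% were called lower and 0.909% higher. The 2 that fell were Kcnd2 and Kcnd3, both from the 12 cardiac genes listed as raised by the hormone, so they moved against that direction. The 1 that rose was from the same 12 genes and moved with it. The median log2 fold change of the 57 genes was 0.01, with 31 positive and 26 negative, against a median of 0.005 over all genes tested.

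**Figure D3:**
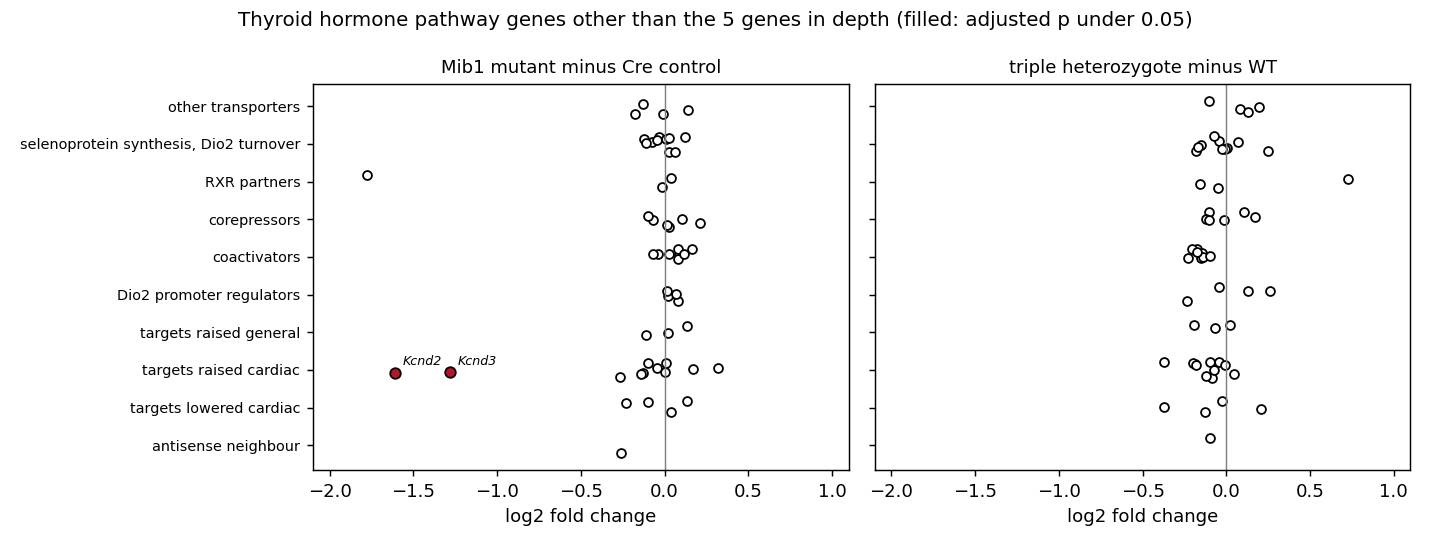
Log2 fold changes of the tested pathway genes by role for Mib1 mutant over Cre control and triple heterozygote over WT, with filled points for called genes. Alb, which lies off the axis, and 2 other genes are not drawn. In the Mib1 mutant the filled points are Kcnd2 at -1.61 and Kcnd3 at -1.28, and the coactivators lie on both sides of 0. In the triple heterozygote no gene is called and all 8 coactivators lie below 0. In the Cre control over WT, which is not drawn, 7 of the 8 were below 0.

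Kcnd2 and Kcnd3 encode the pore subunits of the transient outward potassium current, which shortens the cardiac action potential. Kcnd2 was at 4.56, 3.73 and 3.79 CPM in Mib1 mutant pools, against 13.3, 10.1 and 13.4 CPM in Cre control pools, with no overlap, as for 7.75% of all genes tested in this direction (log2 fold change -1.61, SE 0.16, edgeR adjusted p = 7.07e-05, lower in 3 of 3 pools). Triple heterozygote pools held 10.9, 10.5 and 12.7 CPM, against 12.5, 10.8 and 13.0 CPM in WT pools. The 2 genotype effects differed for Kcnd2 by -1.51 (SE 0.21, edgeR adjusted p = 0.00623), the 1 call among the 57 genes for that difference, where 0.516% of all genes were called. Kcnd3 was at 1.90, 1.40 and 1.98 CPM in Mib1 mutant pools, against 4.73, 3.10 and 5.004 CPM in Cre control pools (log2 fold change -1.28, SE 0.28, edgeR adjusted p = 0.0289, lower in 3 of 3 pools). That call was lost in 8 of 21 alternatives, at adjusted p values of 0.0593 to 0.164. They were limma-voom, a fit restricted to the 6 libraries compared, the removal of both pools of 1 sex, and the removal of Mib1 mutant replicate 1, 2 or 3 or Cre control replicate 1 or 3. The part of the fibroblast, cardiomyocyte, macrophage and epicardial marker sums given above in these calls was not tested.

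**Figure D4:**
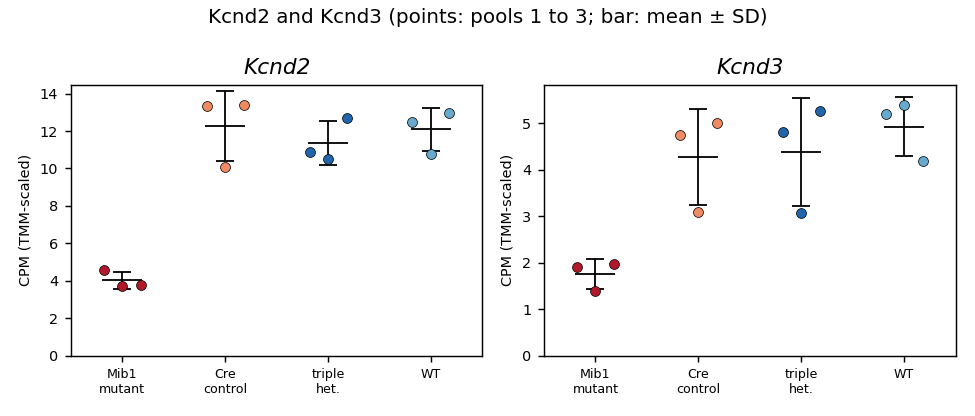
CPM (TMM-scaled, linear axis from 0) of Kcnd2 and Kcnd3 in each pool, with points for pools 1 to 3 and a bar for the mean ± SD. Both genes lie lower in all Mib1 mutant pools than in the Cre control pools.

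The myosin and calcium handling targets were not called by edgeR, though DESeq2 called Pln as lower. Myh6, the alpha myosin heavy chain, averaged 1690 ± 467 CPM in Mib1 mutant pools and 1807 ± 105 CPM in Cre control pools (log2 fold change -0.10, SE 0.16, edgeR adjusted p = 0.849). Myh7, the beta chain, averaged 17879 ± 941 CPM in Mib1 mutant pools and 19127 ± 1177 CPM in Cre control pools (log2 fold change -0.10, SE 0.06, edgeR adjusted p = 0.509). Atp2a2, the calcium pump of the sarcoplasmic reticulum, averaged 3109 ± 405 CPM in Mib1 mutant pools and 3102 ± 116 CPM in Cre control pools. Pln, its inhibitor, averaged 1983 ± 12.02 CPM in Mib1 mutant pools and 2324 ± 145 CPM in Cre control pools (log2 fold change -0.23, SE 0.07, edgeR adjusted p = 0.106). Pln is 1 of 4 cardiac genes listed as lowered by the hormone, of which 2 had positive and 2 negative log2 fold changes. Among 6 general targets, 3 were tested and 0 called. Klf9, a transcription factor that receptors activate directly in many tissues, averaged 5.94 ± 0.370 CPM in Mib1 mutant pools and 6.41 ± 0.287 CPM in Cre control pools (log2 fold change -0.11, SE 0.18, edgeR adjusted p = 0.844).

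The partners and cofactors of the receptors were not called in any of the comparisons. Rxra and Rxrb encode retinoid X receptors. Rxra averaged 76.5 ± 11.5 CPM in Mib1 mutant pools and 74.3 ± 5.59 CPM in Cre control pools, and Rxrb averaged 35.6 ± 4.49 CPM in Mib1 mutant pools and 35.9 ± 1.35 CPM in Cre control pools. Rxrg, the third gene of the family, was scarce, at 0.285, 0.280 and 0.172 CPM in Mib1 mutant pools, against 0.676, 0.620 and 1.22 CPM in Cre control pools. These groups, at 2 to 18 reads per library, did not overlap, as for 7.75% of all genes tested in this direction. The log2 fold change of -1.78 (SE 0.53) did not pass the test (edgeR adjusted p = 0.119). Of 6 corepressor genes 0 were called, with a median log2 fold change of 0.02 in the Mib1 mutant. Of 8 coactivator genes 0 were called in either genotype pair. Their log2 fold changes were positive in 6 of 8 in the Mib1 mutant, with a median of 0.08. In the triple heterozygote over WT they were negative in 8 of 8, with a median of -0.16. The Cre control over WT, set against the same WT pools, also had 7 of 8 negative, with a median of -0.11. Ppargc1a, a coactivator of mitochondrial genes, averaged 169 ± 15.3 CPM in triple heterozygote pools and 198 ± 11.3 CPM in WT pools (log2 fold change -0.23, SE 0.09, edgeR adjusted p = 0.565).

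Over the 57 genes, 0 were called by edgeR in the triple heterozygote against WT, and 9 had an unadjusted p under 0.05. Limma-voom called 0 of them, and DESeq2 called 0 of the 54 pathway genes to which it gave an adjusted p. The median log2 fold change was -0.08, with 14 positive and 43 negative, against 0.0 over all genes tested. The 5 erythroid markers summed to 6337 to 7357 CPM in triple heterozygote pools and 3919 to 4618 CPM in WT pools, and their part in this median was not tested. Between the control groups, 0 of the 57 genes were called in Cre control against WT ventricles by edgeR or limma-voom, DESeq2 called 0 of the 64 pathway genes with an adjusted p, 4 had an unadjusted p under 0.05 in edgeR, and 0.279% of all genes were called. The median log2 fold change of the 57 genes there was -0.05, with 18 positive and 39 negative, against -0.001 over all genes tested. Both comparisons use the same WT pools. Erythroid sums of Cre control pools, at 3871 to 4524 CPM, overlapped those of WT pools. Wsb1 had the smallest adjusted p in Cre control against WT (log2 fold change 0.32, SE 0.08, edgeR adjusted p = 0.171). It averaged 123 ± 5.71 CPM in Cre control pools and 98.2 ± 4.64 CPM in WT pools.

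Genes known to act on the Dio2 promoter were read as well. Gata4, a cardiac transcription factor, averaged 215 ± 15.1 CPM in Mib1 mutant pools and 204 ± 3.69 CPM in Cre control pools (log2 fold change 0.08, SE 0.08, edgeR adjusted p = 0.724). Nkx2-5, its partner at many cardiac promoters, had 0.02 (SE 0.11, edgeR adjusted p = 0.968), and Creb1, a factor that binds the cAMP response element, had 0.02 (SE 0.09, edgeR adjusted p = 0.966). With Foxo3, 0 of these 4 genes were called. Of 3 genes for hormone carriers in blood, Ttr had 54 reads over all libraries and Serpina7 had 0. Alb was uneven between pools, with 9.60 CPM in WT replicate 2 and 2.91 CPM in Cre control replicate 3. It had 0 CPM in Mib1 mutant replicate 3. Triple heterozygote pools held 0.091, 0.090 and 0.099 CPM, all below the WT pools at 1.65, 9.60 and 0.822 CPM (log2 fold change -5.29, SE 1.24, edgeR adjusted p = 0.326). With the filter on low counts, edgeR called Alb in none of the comparisons. Without that filter it was called in the Mib1 mutant and in the triple heterozygote.

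The genes whose log2 CPM followed Dio2, Slc16a10, Thra and Thrb most closely over the 12 libraries were sought among other genes with a mean of at least 2 CPM, 11644 for Thrb and 11643 for the other 3. These correlations describe 12 libraries that fall into 4 genotypes. Those with Dio2 hold the values that chose the gene, so high Mib1 mutant levels of its closest genes come with that choice. For Dio2 they were Ptprm (Pearson r = 0.962), Itga9 (0.943), Rhobtb1 (0.941), Kcne1 (0.936) and Loxl2 (0.936). With each genotype's mean taken off, r was 0.822 for Ptprm, 0.676 for Itga9, 0.643 for Rhobtb1, 0.551 for Kcne1 and 0.821 for Loxl2. These values come from the same libraries that ranked the genes. Dio2 and each of these genes were highest in Mib1 mutant replicate 1, so that pool weighs heavily in them. Ptprm encodes a receptor tyrosine phosphatase, Itga9 an integrin subunit, Kcne1 a potassium channel subunit and Loxl2 an enzyme that crosslinks collagen. Kcne1 averaged 198 CPM in Mib1 mutant pools and 101 CPM in Cre control pools, and 93.3 CPM in triple heterozygote pools and 99.2 CPM in WT pools. Itga9 averaged 153 CPM in Mib1 mutant pools and 88.8 CPM in Cre control pools, and 89.3 CPM in triple heterozygote pools and 98.5 CPM in WT pools.

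**Figure D5:**
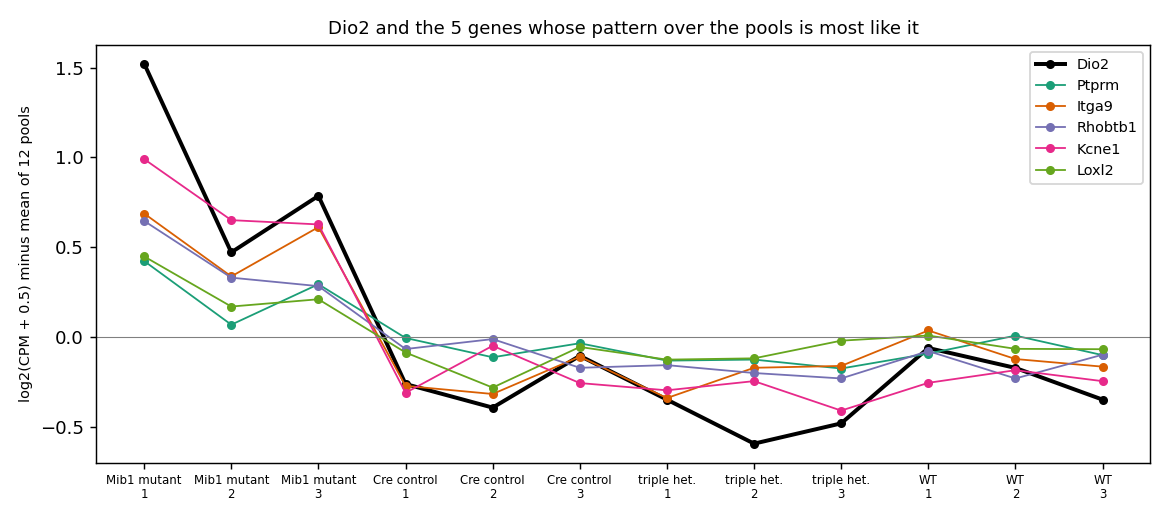
Log2(CPM + 0.5) minus the mean of the 12 pools, for Dio2 (black) and the 5 genes with the highest Pearson r to it, 1 point per pool in genotype order, with lines that only join points of a gene. Kcne1 averages 198 CPM in Mib1 mutant pools and 101 CPM in Cre control pools, and all 6 genes have their highest pool in the Mib1 mutant. That comes with how they were picked, since Dio2 was chosen for its Mib1 mutant values and the others for their r to it.

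For Slc16a10 the closest genes were Timm44 (r = 0.93), an import factor of mitochondria, Camk2a (0.925), a calcium-dependent kinase, and Smyd1 (0.914), a methyltransferase of striated muscle. Smyd1 averaged 362 CPM in Mib1 mutant pools and 429 CPM in Cre control pools, and 442 CPM in triple heterozygote pools and 486 CPM in WT pools. For Thra they were Selenbp1 (0.893), Cracr2b (0.877) and Esam (0.877), an adhesion molecule of endothelial cells. For Thrb, read at 10 to 25.3 expected counts per library, they were Wdr43 (0.856), Skp2 (0.824) and Crlf3 (0.819). Crym was too scarce to be ranked.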

How the data were processed

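PolyA RNA from 12 ventricle pools was sequenced as directional libraries (single reads, 60 bases) per the labels' protocols. GRCm38, RSEM, cutadapt, limma and bcl2fastq 2.20.0.422 stand in the submitters' processing notes, while an aligner and an annotation release were not given in the sources used here. Values in the table the authors deposited are RSEM expected counts per gene, estimated reads that need not be whole (9.64% were not, at a tolerance of 1e-06) and were not scaled for depth. All 12 columns were assigned by name and 0 left out; that the columns called mutant are the triple heterozygote is an inference from their names. Pools of 1 genotype differed beyond sampling noise, with a chi-square of 2.07 to 14.1 for each degree of freedom; whether pools shared litters is not stated, so p-values measure the spread between these pools.

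Rounded counts went into edgeR 4.0.16 under R 4.3.3 (two-sided quasi-likelihood F test, TMM, filterByExpr, 1 fit with 4 groups and 8 residual degrees of freedom, a common biological coefficient of variation of 0.0982). It kept 13964 genes holding 99.9% of the counts, with Benjamini-Hochberg adjustment over all of them and a threshold of 0.05. The procedure was tested on simulated data. The SE is the log2 fold change divided by the square root of F. Symbols, positions and exonic lengths came from GENCODE M21, which matched 36429 identifiers. Intervals from counts cover counting error only. Promoter windows came from RefSeq tables for 3 of the 5 genes.

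The 5 genes and the pathway lists (69 genes, Nr1d1 included as the antisense neighbour of Thra) were chosen with earlier results of these data known. Named genes are the 5 genes, every pathway gene called, up to 3 of each list with the highest mean CPM and those with no read, and the closest genes by correlation of log2 CPM with a prior count of 2; the values of 2 pathway genes are not reported here, though counts include them. Slco1c1 and Foxo3 were chosen after their values were seen. Alternatives were median-ratio size factors, no filter, a mean of at least 2 CPM, DESeq2 1.42.0, limma-voom 3.58.1, only the libraries compared, a block on replicate number, a covariate for the sex mix of each pool, leaving out the pools of 1 sex, each replicate left out, and the longest transcript as length.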

Additional observations from a re-analysis of the deposited data

Results flagged for a closer look

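Kcnd2, a potassium channel gene, responded differently in the 2 genotype pairs. Its log2 fold change was -1.61 in the Mib1 mutant over the Cre control and -0.10 in the triple heterozygote over WT, a difference of -1.51 (SE 0.21, edgeR adjusted p = 0.00623).

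For Dio2, every Mib1 mutant pool lay above the Cre control mean and every triple heterozygote pool lay below the WT mean, with a log2 difference between the effects of 1.57 (SE 0.30). The triple heterozygote effect did not pass the test (log2 fold change -0.30, SE 0.22, edgeR adjusted p = 0.674), and 1 of its pools was level with the lowest WT pool. The difference itself was not tested, since the gene was chosen for the first of these effects.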

How the results depend on the processing

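In the 21 alternatives of each comparison, the log2 fold change of Dio2 in the Mib1 mutant over the Cre control was 0.89 to 1.48, and 0.90 to 1.48 with single pools left out. In the triple heterozygote over WT it was -0.38 to -0.23 and was called in 0 of them. Of the 57 pathway genes, 3 were called in the Mib1 mutant, 4 with DESeq2 (Pln added, lower) and 4 with no filter (Alb added, lower). It was 2 with limma-voom or only the libraries compared, 2 to 3 with single pools left out, and 1 (Kcnd2) without the pools of 1 sex. In the triple heterozygote 0 were called, 0 to 0 with single pools left out, and 1 (Alb) with no filter. Between the controls 0 were called, 0 to 0 with single pools left out, and 1 (Wsb1) in a fit of only the libraries compared. For the difference between effects 1 was called, 1 to 3 with single pools left out, and 2 with no filter or DESeq2. The cause of these changes was not tested.

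The log2 fold change of Thra in the triple heterozygote, -0.004, turned to 0.00038 with median-ratio factors, 0.0102 with no filter, 0.00898 for genes averaging 2 CPM or more, 0.00953 in a fit of only the libraries compared, 0.00866 without the pools of 1 sex, and -0.0545 to 0.0198 with single pools left out. That of Thrb was -0.12 to 0.34 with single pools left out, and Thrb has no value with a mean of at least 2 CPM. With the longest transcript as length, levels in WT were 4.80 TPM for Dio2, 121 TPM for Thra and 14.5 TPM for Slc16a10, against 5.95, 79.7 and 13.2 TPM with exonic length.

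With the replicate number as a block, 3 pathway genes were called in the Mib1 mutant, and the Dio2 log2 fold change was 1.23. Over all genes the block moved the calls to 318, against 210 without it. Same-numbered pools correlated in their deviations at 0.125, 0.166 and 0.014 for the Mib1 mutant and Cre control. Not every pool correlated best with its own number, so the numbers were not taken to pair the pools. Xist was nearly absent in replicate 1 of both these groups. In replicates 2 and 3 it was at 418 and 131 CPM in the Mib1 mutant and 331 and 458 CPM in the Cre control. Triple heterozygote pools held 355, 112 and 106 CPM of Xist, and WT pools 378, 116 and 71.5 CPM. Whether same-numbered pools were matched cannot be told from these values. Thrb and Crym rest on few reads, which limits what can be seen of them.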
